A study of Rattus norvegicus with 21 samples.

Results

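In rat PC12 cells, 69 genes separated the libraries of cells given an ethanol extract of Jakyakgamcho-tang (JGT) from every other library of the series. They were chosen by measured level. For each of 12266 genes whose mean over 21 libraries was 1 CPM or more (the expected count divided by the library's total and scaled to counts per 1000000), the 9 ethanol libraries were set against the other 12. A gene was a member when all 9 lay above, or all 9 lay below, each of the 12 vehicle and water extract libraries. The 39 higher members were 0.318% of the genes kept and the 30 lower members 0.245%, together 0.563%. None of the 20617 IDs under 1 CPM, of 32883 in all, separated the libraries in the same way (0 genes). An ID with a count of 0 in libraries of both sides can meet neither direction, which limits what this shows of low levels. Because these values selected the members, the difference between ethanol and the other libraries is described below without a test.

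The libraries came from cultured PC12 cells and fell into 7 groups of 3: vehicle, water extract at 4, 20 or 100 µg/mL, and ethanol extract at 4, 20 or 100 µg/mL. The doses are called low, medium and high. The vehicle libraries are labelled vehicle in 1 field and untreated in another, and no label names the vehicle liquid, the hours of exposure or separate cultures. The spread that the p-values rest on is that between these libraries and may be technical.

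PC12 is a line from a tumour of the rat adrenal medulla. Its cells make and store catecholamines and put out neurites when given nerve growth factor, and they serve as a model of neurons. JGT is a formula of peony root and licorice root, used in East Asia against muscle cramps. Water draws mainly polar compounds out of plant material, and ethanol also draws out less polar ones, so both extracts of 1 formula can differ in composition. In bulk RNA such as this, a change in the number of cells of a kind and a change of RNA per cell cannot be told apart.

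The members are known here by Ensembl rat ID only. None of the IDs paired with a symbol in the RefSeq rat table (0 of 32883), so the roles of the members, pathway lists and PC12 marker genes were not analysed here, and the label of the cells was not checked against markers. The 2 higher and the 2 lower members with the widest gap are named. The gap is the distance on log2(CPM + 0.5) between the nearest ethanol library and the nearest of the other 12. Other members are given by direction and by their rank of gap.

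ENSRNOG00000046379.2, a gene of 1196 bases with 1 listed transcript, had the widest gap of the higher members. Its levels in replicates 1, 2 and 3 were 0, 0 and 5.92 CPM in vehicle, 0, 1.68 and 0 CPM in low-dose water, 5.08, 0 and 2.01 CPM in medium-dose water, and 2.91, 1.93 and 3.50 CPM in high-dose water. With ethanol extract they were 79.0, 49.3 and 64.6 CPM at 4 µg/mL, 46.5, 90.3 and 124 CPM at 20 µg/mL, and 83.8, 71.5 and 58.8 CPM at 100 µg/mL. The gene had a count of 0 in 5 of the 12 other libraries and was low but detected in the other 7, and it was far higher in all 9 ethanol libraries, where the doses overlapped. The means were 74.2 ± 23.9 CPM (SD, n = 9) and 1.92 ± 2.09 CPM (SD, n = 12), a 38.7-fold difference. A count of 0, found in 5 libraries, allows up to 3 counts, or 0.108 to 0.129 CPM, by counting error alone. Its count was not a whole number in the other 16 libraries, which is how RSEM reports reads divided between genes of similar sequence, so its level depends on that division.

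ENSRNOG00000047516.2, of 4188 bases, was the other higher member at or above a 2-fold difference. Its levels were 23.7, 16.2 and 12.2 CPM in vehicle, 17.9, 19.6 and 15.4 CPM in low-dose water, 18.6, 18.6 and 11.5 CPM in medium-dose water, and 18.8, 20.2 and 19.5 CPM in high-dose water. With ethanol extract they were 41.2, 34.8 and 35.3 CPM at 4 µg/mL, 33.4, 41.4 and 31.6 CPM at 20 µg/mL, and 38.2, 31.9 and 32.1 CPM at 100 µg/mL. Vehicle replicate 1 was the highest of the 12, and the ethanol doses again overlapped. The means were 35.6 ± 3.86 CPM (SD, n = 9) and 17.7 ± 3.39 CPM (SD, n = 12), a 2.01-fold difference. Its counts were not whole in all 21 libraries.

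ENSRNOG00000005724.5, of 4540 bases, had the widest gap of the lower members. Its levels were 25.8, 25.2 and 30.7 CPM in vehicle, 26.1, 25.8 and 29.2 CPM in low-dose water, 27.0, 26.5 and 29.6 CPM in medium-dose water, and 29.3, 23.7 and 22.6 CPM in high-dose water. With ethanol extract they were 8.88, 11.2 and 7.15 CPM at 4 µg/mL, 13.9, 4.34 and 9.13 CPM at 20 µg/mL, and 6.84, 12.8 and 11.99 CPM at 100 µg/mL. Vehicle and the 3 water doses overlapped, and so did the 3 ethanol doses. The mean was 9.59 ± 3.15 CPM (SD, n = 9) with ethanol and 26.8 ± 2.48 CPM (SD, n = 12) without, 2.80-fold lower, and no library had a whole count.

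ENSRNOG00000011078.4, of 1244 bases, had the second-widest gap of the lower members. Its levels were 92.2, 88.8 and 83.6 CPM in vehicle, 109, 94.8 and 105 CPM in low-dose water, 92.4, 94.5 and 97.7 CPM in medium-dose water, and 85.7, 86.4 and 87.8 CPM in high-dose water. With ethanol extract they were 41.7, 49.1 and 36.2 CPM at 4 µg/mL, 70.5, 22.9 and 8.87 CPM at 20 µg/mL, and 23.7, 31.9 and 31.6 CPM at 100 µg/mL. The medium dose held both the highest and the lowest ethanol library, while every high-dose library was under every low-dose library. The means were 35.2 ± 17.6 CPM (SD, n = 9) and 93.2 ± 7.78 CPM (SD, n = 12), 2.65-fold lower, and 16 libraries had counts that were not whole.

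**Figure D1:**
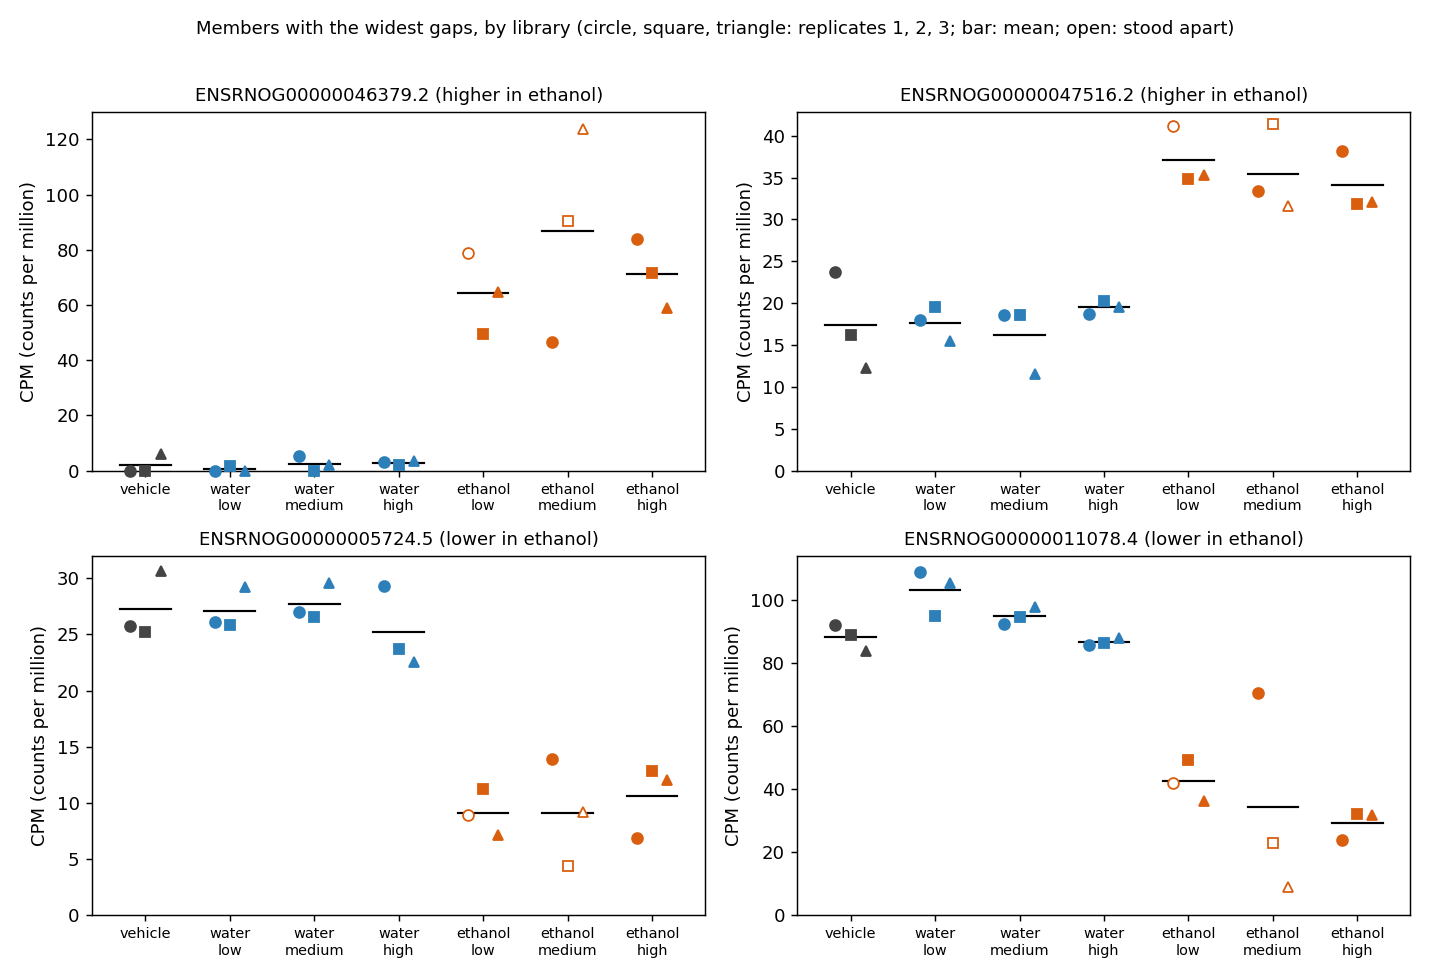
Level of the 4 named members in each library, in CPM (vertical axis, from 0), by group (horizontal axis). Circles, squares and triangles are replicates 1, 2 and 3, bars are group means of 3 libraries, and open symbols are the 3 ethanol libraries that stood apart over all genes. The ethanol libraries of ENSRNOG00000011078.4 spread from 8.87 to 70.5 CPM, while those of ENSRNOG00000047516.2 lie between 31.6 and 41.4 CPM.

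Against vehicle, the log2 fold changes of the mean of the 3 ethanol doses in the edgeR fit were 5.28 ± 0.970 for ENSRNOG00000046379.2, 0.99 ± 0.161 for ENSRNOG00000047516.2, -1.53 ± 0.211 for ENSRNOG00000005724.5 and -1.37 ± 0.335 for ENSRNOG00000011078.4 (SE). Against the mean of the 3 water doses they were 5.52 ± 0.602, 0.98 ± 0.108, -1.48 ± 0.163 and -1.45 ± 0.258 (SE). These are descriptions of the values that chose the members. Per transcript length, in the TPM (transcript abundance scaled by length and to a fixed sum) that the authors deposited, ENSRNOG00000046379.2 was at 107 ± 43.9 with ethanol and 2.56 ± 2.79 without (SD, n = 9 and 12). ENSRNOG00000011078.4 was at 46.0 ± 20.7 and 119 ± 10.1 TPM, ENSRNOG00000047516.2 at 12.5 ± 2.30 and 5.80 ± 1.16 TPM, and ENSRNOG00000005724.5 at 3.02 ± 0.836 and 8.07 ± 0.773 TPM (SD, n = 9 and 12). On this scale ENSRNOG00000011078.4 was the most abundant of the 4 without ethanol extract and ENSRNOG00000046379.2 the most abundant with it.

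Most members differed far less than these 4. Among the 39 higher members the median fold was 1.24 (1.11 to 38.7), 36 were under 1.5-fold and 2 reached 2-fold. Among the 30 lower members the median was 1.25-fold lower (1.13 to 2.80), 23 were under 1.5-fold and 4 reached 2-fold. The 2 lower members at 2-fold or more that are not named above had ranks 3 and 26 by gap. The former stood at 6.91 ± 2.12 CPM (SD, n = 9) against 14.5 ± 2.30 CPM (SD, n = 12). The other stood at 0.737 ± 0.314 CPM (SD, n = 9) against 1.76 ± 0.353 CPM (SD, n = 12), and its mean over 21 libraries, 1.32 CPM, was the closest of all members to the floor of 1 CPM. Over all 12266 genes, 72 had means at least 2-fold apart, or 0.587%, so most genes with a difference of that size were not members.

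The separation was narrow for most members. The gap was under 0.05 log2 units in 46 of 69, and over 0.1 in 6 higher and 5 lower members. In the higher member with the smallest gap, the lowest ethanol library stood at 107.362 CPM and the highest of the others at 107.287 CPM. In the gene just outside the rule, the corresponding levels were 125.213 and 125.218 CPM. For the lower members they were 23.0786 CPM for the highest ethanol library and 23.0941 CPM for the lowest of the others just inside, and 19.891 and 19.8892 CPM just outside. Exact 95% Poisson intervals of the nearest libraries, which cover counting error only, were apart in 8 of 69 members: 6 higher and 2 lower. Those 8 included 4 of the 6 members at 2-fold or more. The rule had already placed these libraries apart, so the intervals only describe the size of the gap. They also leave out the error of dividing reads between genes, and most of the 8 had counts that were not whole.

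**Figure D2:**
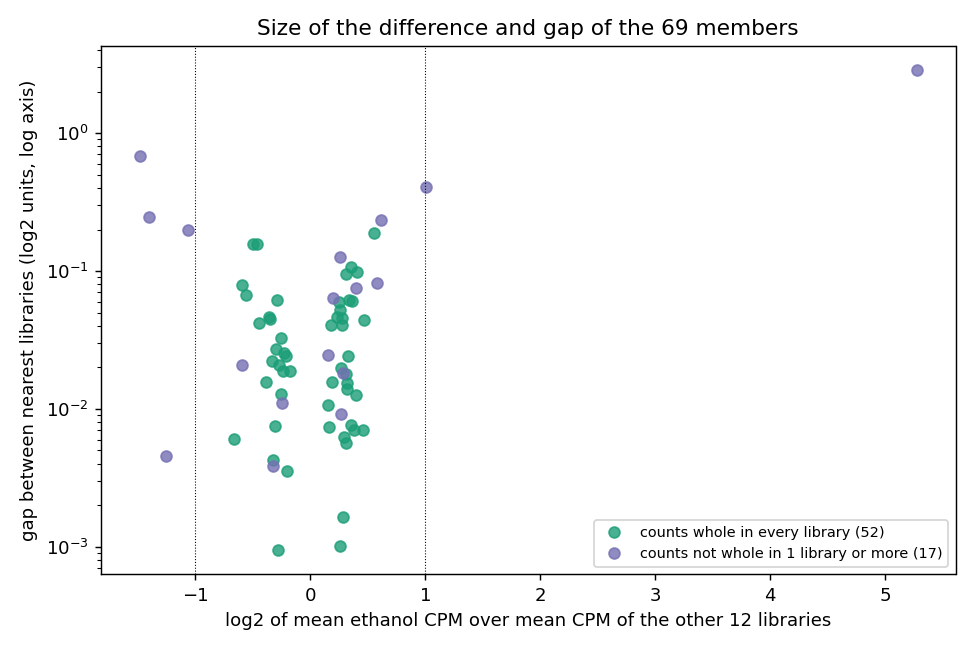
Each point is 1 of the 69 members. The horizontal axis is the log2 ratio of mean ethanol CPM to the mean CPM of the other 12 libraries, with dotted lines at 2-fold, and the vertical axis (log scale) is the gap between the nearest libraries in log2 units. Colour tells the 52 members whose counts were whole in every library from the 17 whose counts were not, and all 6 members at or beyond 2-fold are among the 17.

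The remaining members with wide gaps had smaller folds. The higher member at rank 3, of 2 listed transcripts, was at 44.9 ± 8.23 CPM with ethanol (SD, n = 9) and 29.4 ± 3.08 CPM without (SD, n = 12). Its ethanol libraries ran from 39.2 to 65.8 CPM and the others from 21.5 to 33.3 CPM, with medium-dose replicate 3 far above the other ethanol libraries. The higher member at rank 5 ran from 119 to 155 CPM with ethanol and from 97.6 to 109 CPM without, and the one at rank 6 from 60.4 to 73.2 CPM against 46.9 to 56.0 CPM. Among the lower members, the one at rank 4 ran from 8.98 to 13.6 CPM with ethanol and from 15.3 to 17.6 CPM without. The one at rank 5 ran from 21.3 to 28.9 CPM against 32.3 to 34.9 CPM. In that lower member the high-dose libraries were among the lowest, at 22.6, 21.3 and 22.2 CPM, and the highest ethanol values were those of medium-dose replicates 2 and 3, 28.9 CPM each.

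Counts that were not whole were found in every member with a large difference. They occurred in at least 1 library for 17 of 69 members (24.6%), against 1937 of the 12266 genes (15.8%). In 16 or more libraries the figures were 15 members (21.7%) and 1430 genes (11.7%). All 6 members at 2-fold or more had such counts, against 11 of 63 members under 2-fold (17.5%). Of the 72 genes of any kind at 2-fold or more, 70 had them (97.2%). In 16 or more libraries they were found for all 6 of these members and for 42 of the 72 genes (58.3%). The part of this division of reads in the members' differences was not tested.

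Length and transcript number are features that the rule did not use. The median length was 2264 bases for members (2131 higher, 2716 lower) and 2217 bases for all 12266 genes. The median level, which the rule did use, was 51.0 CPM for members, 56.9 CPM for the higher and 23.9 CPM for the lower, against 29.1 CPM over all. More than 1 listed transcript was found for 19 members (27.5%), against 29.7% of all genes. The abundance-weighted transcript length, which moves when a gene shifts between long and short transcripts, differed between libraries in 17 members, and in 0 of these 17 did it separate ethanol from the other libraries. It did so in 15 of 3470 genes (0.432%).

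The members were also followed library by library, as the deviation of log2(CPM + 0.5) from each gene's median in the 12 vehicle and water libraries. In the 12 themselves, the median over the higher members lay between -0.05 and 0.07 and over the lower members between -0.06 and 0.03. In ethanol replicates 1, 2 and 3 the higher members stood at 0.37, 0.20 and 0.14 with 4 µg/mL, 0.23, 0.36 and 0.55 with 20 µg/mL, and 0.25, 0.22 and 0.18 with 100 µg/mL. The lower members stood at -0.49, -0.24 and -0.21, then -0.30, -0.33 and -0.71, then -0.33, -0.27 and -0.21. Medium-dose replicate 3 was the furthest out in both directions, and low-dose replicate 3 was the nearest in both. For the lower members it was close to high-dose replicate 3, at -0.2091 against -0.2127.

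**Figure D3:**
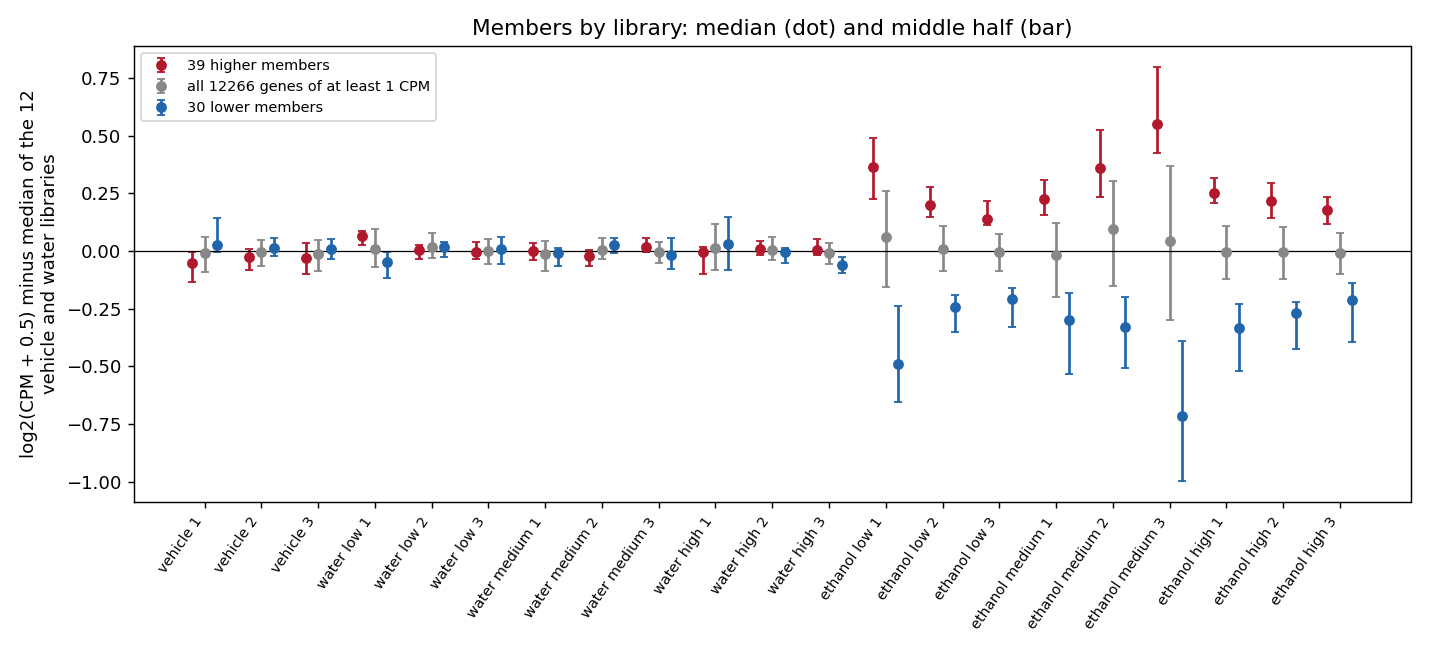
Deviation of log2(CPM + 0.5) from each gene's median in the 12 vehicle and water libraries (vertical axis, log2 units) for every library (horizontal axis). Dots are medians and bars the middle 50% of genes, for the 39 higher members, the 30 lower members and all 12266 genes. The higher members reach 0.55 and the lower ones -0.71 in medium-dose ethanol replicate 3, where the bar of all genes is also widest.

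A set of 3 ethanol libraries stood apart over all genes: low-dose replicate 1 and medium-dose replicates 2 and 3. Their median absolute deviation over all genes was 0.215 to 0.338 log2 units, against 0.0458 to 0.154 in the other 18. Their totals were 8344416 to 14918515 counts, against 15005249 to 28420922, and their fragments 178.72 to 202.49 bases, against 205.35 to 240.8 bases. The set was a fixed list, and no threshold defined it. Next came medium-dose ethanol replicate 1, at a median absolute deviation of 0.154 and 15005249 counts. After it came high-dose ethanol replicate 2, at a deviation of 0.114. The most extreme of the 21 libraries was 1 of these 3 for 35 of 39 higher and 25 of 30 lower members. With only the other 6 ethanol libraries, the median fold was 1.16 for the higher members (1.06 to 32.5, with 1 at 2-fold) and 1.21 for the lower (1.11 to 2.52, with 3 at 2-fold). ENSRNOG00000046379.2 was then 32.5-fold higher and ENSRNOG00000047516.2 1.94-fold higher. ENSRNOG00000005724.5 was 2.52-fold and ENSRNOG00000011078.4 2.30-fold lower.

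Fragment length moved with the extract too. The 12 other libraries had fragments of 216.61 to 240.8 bases, and 3 ethanol libraries lay within that range: medium-dose replicate 1 and high-dose replicates 2 and 3. In these 3 the higher members stood at 0.18 to 0.23 and the lower members at -0.30 to -0.21 log2 units. The rule itself places each ethanol library beyond the 12, so these medians say nothing of fragment length, and its part in the differences was not tested.

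**Figure D4:**
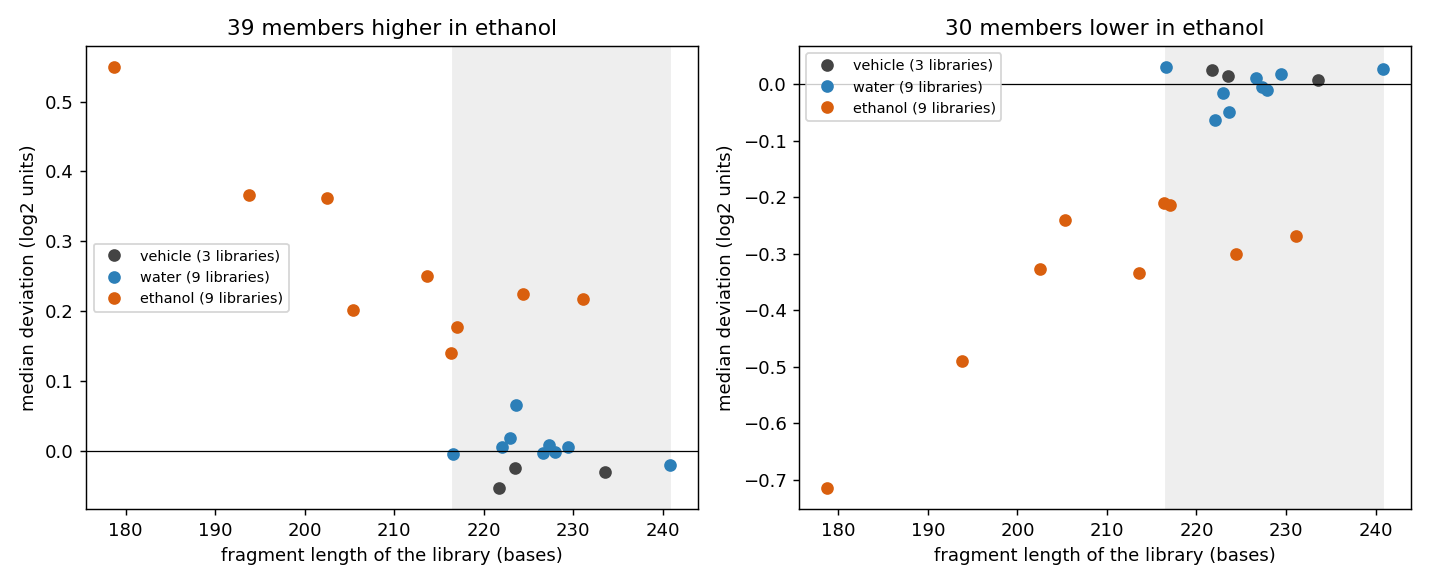
Median deviation of the 39 higher members (left) and the 30 lower members (right) in log2 units, against the fragment length of the library in bases. Points are libraries, coloured by vehicle, water or ethanol, and grey marks the range of the 12 vehicle and water libraries. The ethanol library with the shortest fragments, 178.72 bases, has the largest deviations, 0.55 and -0.71.

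Without low-dose replicate 1 and medium-dose replicates 2 and 3 of ethanol, the same rule was met by 214 genes, or 1.74% of those kept. Fewer libraries can only loosen the rule. The scale mattered as well. With totals scaled by TMM (a trimmed mean that balances the libraries), 77 genes separated, 39 higher and 38 lower, and 52 of the 69 members were among them. In TPM 48 genes did, 40 higher and 8 lower, of which 25 were members: 20 of the higher and 5 of the lower. The 4 named members were among the 52 and among the 25. The TPM scale moved the median difference of all genes from 0.01 to 0.09 log2 units. It moved the median of the higher members from 0.29 to 0.37 and that of the lower members from -0.33 to -0.24.

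Whether the members followed the dose of ethanol extract was tested by edgeR's quasi-likelihood test over all 13550 genes that passed its filter on low counts, all 69 members among them. A gene was called where its p, adjusted by Benjamini-Hochberg over those genes, was under 0.05. The rule keeps the ethanol libraries together on 1 side, which limits how far they can differ. From the low to the high dose, 0 of 69 were called, against 0.00738% of all genes. By DESeq2 0 were called (22 of all genes), and 0 members had an unadjusted p under 0.05, against 4.80% of all genes. The median change was 0.01 for the higher members (-0.20 to 0.19) and 0.03 for the lower (-0.51 to 0.38).

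For the named members, high against low dose gave log2 changes of 0.19 ± 0.763 for ENSRNOG00000046379.2, -0.09 ± 0.184 for ENSRNOG00000047516.2, 0.26 ± 0.295 for ENSRNOG00000005724.5 and -0.51 ± 0.449 for ENSRNOG00000011078.4 (SE; edgeR adjusted p = 1.00 each). None passed, and the errors of ENSRNOG00000046379.2 and ENSRNOG00000011078.4 were the widest of the 4. The error of ENSRNOG00000011078.4 rests on a spread shared with the medium dose, whose libraries ran from 8.87 to 70.5 CPM. Its high-dose libraries all lay under its low-dose libraries, and without the 3 libraries that stood apart its change was -0.53. The lack of a call therefore does not show that this member was level between the doses.

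The medium dose holds 2 of the 3 libraries that stood apart. From low to medium dose 0 of 69 members were called by edgeR (0.00738% of all genes) and 4 by DESeq2 (366 of all genes), with 19 at an unadjusted edgeR p under 0.05, against 19.3% of all genes. The change was positive in 32 of 39 higher members (median 0.13) and negative in 25 of 30 lower members (median -0.17). From medium to high dose it was negative in 34 of 39 higher members (median -0.10) and positive in 27 of 30 lower members (median 0.21). Of the 69, 2 were called (2.90%), a share below the 3.73% of all genes. Leaving out the 3 libraries leaves the medium dose with 1 library, replicate 1, and the low dose with 2. The medians were then 0.06 and -0.04 from low to medium, and 0.01 and 0.00 from medium to high. Without medium-dose replicate 1, which leaves that dose only libraries that stood apart, 28 members were called from low to medium (5207 of all genes) and 32 from medium to high (5878 of all genes). Without medium-dose replicate 3 these counts were 0 and 0 (1 and 3 of all genes), and from medium to high 5 members were called without replicate 2 (731 of all genes).

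The 2 called members differed between medium and high dose. The higher member at rank 34 by gap was at 190, 259 and 342 CPM at the medium dose and 190, 179 and 174 CPM at the high dose. Medium-dose replicates 2 and 3 were above the rest, and replicate 1 was level with the highest of the high-dose libraries. The log2 change of this member was -0.49 ± 0.122 (SE; edgeR adjusted p = 0.0394, with 8.97e-06 to 0.412 over 12 alternatives and a call in 6). The lower member at rank 4 was at 10.4, 10.1 and 8.98 CPM at the medium dose and 12.2, 13.6 and 12.2 CPM at the high dose, with no overlap. Here the log2 change reached 0.41 ± 0.0903 (SE; edgeR adjusted p = 0.029, with 0.000328 to 0.151 and a call in 7 of 12).

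With 18 libraries, where the medium dose rests on 1 library assumed to vary like the other groups, edgeR called 0 of 69 members from low to high dose (0.596% of all genes). It called 4 from low to medium (14.4%) and 5 from medium to high (15.3%). ENSRNOG00000011078.4 was among them, with a log2 change of 0.76 from low to medium (edgeR adjusted p = 0.00462) and -1.29 from medium to high (edgeR adjusted p = 4.63e-05). Which medium-dose libraries were kept decided the sign: without medium-dose replicate 1 the same changes were -1.52 (edgeR adjusted p = 0.000179) and 1.01 (edgeR adjusted p = 0.00359).

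Water extract was compared with vehicle to see whether members also moved without ethanol. The rule keeps these 12 libraries on 1 side, and the 3 comparisons share the vehicle libraries. Their p-values also rest on a spread estimated over all 21 libraries, the ethanol libraries that stood apart included. At the low dose 1 of 69 members was called (1.45%), against 0.369% of all genes. At the medium and high doses 0 were called, against 0.00738% and 0.0664%. DESeq2 called 2, 1 and 1 members, beside 236, 10 and 76 of all genes. By edgeR, 4, 2 and 2 members had an unadjusted p under 0.05, against 9.92%, 3.13% and 6.58% of all genes. With 18 libraries 5, 1 and 1 members were called, against 10.5%, 0.283% and 4.33%.

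The called member was the higher one at rank 4 by gap, of 4145 bases with 2 listed transcripts and whole counts in all libraries. It stood at 58.6, 65.9 and 68.6 CPM in vehicle, 95.3, 88.0 and 92.5 CPM in low-dose water, 91.2, 86.7 and 91.0 CPM in medium-dose water, and 82.1, 86.6 and 94.6 CPM in high-dose water. With ethanol extract it stood at 117, 115 and 110 CPM at 4 µg/mL, 109, 142 and 156 CPM at 20 µg/mL, and 117, 119 and 114 CPM at 100 µg/mL. All 9 water libraries lay above the 3 vehicle libraries and below the 9 ethanol libraries. The rule itself sets water below ethanol, and only the step from vehicle to water was not required by it.

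Its log2 change from vehicle was 0.49 ± 0.0918 at the low dose of water extract (SE; edgeR adjusted p = 0.0212), 0.47 ± 0.0918 at the medium dose (SE; edgeR adjusted p = 0.194) and 0.43 ± 0.0919 at the high dose (SE; edgeR adjusted p = 0.0977). The 3 changes were close in size, and only the low dose passed. With 18 libraries all 3 passed, at 0.49, 0.47 and 0.43 (edgeR adjusted p = 2.69e-05, 0.000100 and 0.000134). The low-dose call was lost when any 1 vehicle or low-dose water library was left out, with an adjusted p of up to 0.167.

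Water and vehicle were fully apart in 6 of 69 members (8.70%), against 6.87% of all genes kept. Among the higher members, those at ranks 4, 16 and 33 had all 9 water libraries above vehicle, on the side of ethanol. The one at rank 16 had 49.1, 52.5 and 53.1 CPM in vehicle, 54.3 to 58.1 CPM in water and 60.0 to 77.5 CPM in ethanol. The higher member at rank 10 went the other way, at 61.0, 61.1 and 61.3 CPM in vehicle and 55.2 to 59.1 CPM in water, below its 64.7 to 122 CPM in ethanol. Of the 2 lower members, the one at rank 21 had water below vehicle, on the side of ethanol, and the one at rank 29 had water above vehicle. The remaining 63 members had overlapping water and vehicle libraries.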

How the data were processed

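Messenger RNA libraries were made from total RNA with a directional kit, per the labels' protocols. The deposited values are expected counts per gene, TPM and lengths in bases, per the file headers. The submitters' processing notes name RSEM 1.3.3. Genome build, annotation, aligner version and the strand option are not given in the sources used here. Totals were 8344416 to 28420922 counts, and the 21 pairs of libraries of 1 group differed by a chi-square of 2.96 to 140 per degree of freedom.

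The members and gene lists were chosen with earlier results of these data known. Gene lists and cell markers need symbols, and 0 of 32883 IDs paired with one of 47357 RefSeq genes (GRCr8), so they could not be applied. IDs were named by gap, 2 in each direction.

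CPM was the expected count over the file's total, with a pseudocount of 0.5 CPM on the log2 scale. For tests, expected counts were rounded and fitted by edgeR 4.0.16 in R 4.3.3 (TMM, default filter on low counts, robust quasi-likelihood, 1 coefficient for each of 7 groups over 21 libraries, 13550 genes), with Benjamini-Hochberg adjustment over all genes in each of 6 comparisons. SE is the absolute log2 change over the square root of F. DESeq2 1.42.0 was an alternative. The procedure was tested on simulated data. A library's fragment length is the median difference between length and effective length in genes of 1000 bases or more. Same-numbered low- and high-dose ethanol libraries deviated together over all genes (r = 0.159 to 0.248 in 3 pairs). Differently numbered libraries were not compared in this way, so whether the numbers pair the libraries is not known. In the other comparisons r was -0.169 to 0.13. The main fit and its SE did not use the numbers and are unpaired. An alternative fit, the replicate block, added replicate effects common to all 7 groups.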

Additional observations from a re-analysis of the deposited data

How the results depend on the processing

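The rule gave 67 members at a floor of 5 CPM, 69 at 0.5 CPM, and 70 to 131 with 1 library left out, which can only loosen it (131 without medium-dose ethanol replicate 1, 114 without low-dose water replicate 1, 104 without medium-dose ethanol replicate 2 or high-dose ethanol replicate 3). On 18 libraries it gave 214. With the replicate block, 0 members were called for high against low ethanol dose and 1 for high against medium, and no other count of members called changed by over 1.5-fold. For ethanol high against low dose the count was 0 in all 12 alternatives. For medium against low it was 4 with 18 libraries, 4 with DESeq2 and 0 to 28 with 1 library left out (28 without medium-dose replicate 1, 1 without low-dose replicate 1). For high against medium it was 5, 11 and 0 to 32 (32 without medium-dose replicate 1, 5 without medium-dose replicate 2, 0 without medium-dose replicate 3 or any 1 high-dose library). For water against vehicle it was 5, 2 and 0 at 4 µg/mL, 1, 1 and 0 at 20 µg/mL, and 1, 1 and 0 at 100 µg/mL.

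Over all genes, the counts called were 1, 1, 506, 50, 1 and 9 (ethanol high against low, medium against low and high against medium, then water low, medium and high against vehicle). DESeq2 gave 22, 366, 1508, 236, 10 and 76, and 18 libraries 82, 1983, 2099, 1444, 39 and 596. The replicate block gave 0, 1, 230, 73, 1 and 15, and no filter on low counts 1, 1, 257, 37, 1 and 5. For high-dose water, DESeq2 size factors gave 5 and effective length offsets 4. With 1 library left out the ranges were 0 to 1, 0 to 5207, 0 to 5878, 7 to 24, 0 to 3 and 1 to 5. The cause of these shifts was not tested. For ENSRNOG00000011078.4, medium against low dose was 0.76 with 18 libraries and -1.52 to 0.17 with 1 library left out, and high against medium was -0.68 to 1.01 (signs turned without medium-dose replicate 3 and without replicate 1, respectively).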

Other observations

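Genes outside the membership also separated the libraries on other scales. On TMM-scaled totals 25 genes that are not members did so, and in TPM 23 did.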
